A study of Mus musculus with 9 samples.

Results

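The 9 genes described here run the hormonal stress response and its feedback: Crh, Crhbp, Crhr1, Crhr2, Hsd11b1, Nr3c1, Nr3c2, Fkbp5 and Sgk1. They were listed by name for that role, and are 9 of the 34324 protein-coding and long noncoding RNA genes of the annotation used. The data are whole-genome bisulfite reads of CpGs from the nucleus accumbens, 1 sample from each of 9 male C57BL/6J mice aged 8 weeks, with 5 mice labelled Control and 4 labelled Susceptible. The stress was chronic social defeat, in which an aggressive CD1 male attacked the mouse once a day for 10 days. All libraries carry 1 treatment text, which states neither the handling of the Control group nor the score behind the Susceptible label. No allele or transgene is named in either group. DNA came from frozen tissue punches that hold neurons and glia together, so fewer cells of a methylated type and less methylation within each cell cannot be told apart.

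Corticotropin-releasing hormone, encoded by Crh, starts the hormonal stress cascade and also acts as a neuropeptide inside the brain. The cascade ends in corticosterone, which binds the glucocorticoid receptor Nr3c1 and the mineralocorticoid receptor Nr3c2. The bound glucocorticoid receptor switches on target genes such as Fkbp5, whose product lowers the receptor's hormone affinity and so closes a feedback loop, and Sgk1, a kinase. CRH signalling is known to act in the nucleus accumbens on dopamine release and motivation.

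In neither the start regions, the gene bodies nor the 1-kb tiles of these 9 genes did any difference between Control and Susceptible mice pass a Benjamini-Hochberg adjusted p of 0.05. The start regions themselves differed widely in level from gene to gene in both groups, from about 1% at Crhr1 to about 97% at the third Sgk1 start. Those levels and the places of low methylation are described first, followed by the differences that came nearest to the threshold.

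Each level below is the share of calls that read as methylated cytosine in 1 library, as a percent, with both strands of a CpG added. Hydroxymethylated cytosines read the same way. A start window runs 1000 bp to each side of an annotated start. Crh and Nr3c1 have no listed start, so both ends of the gene are given for them, called the low and the high end by coordinate (mm10 throughout). The 9 genes have 16 such windows, and all 16 passed the minimum of 3 CpGs and 20 calls in every library. All 9 gene bodies passed too, while 531 of the 897 tiles with a listed CpG in and within 5000 bp of the genes did.

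Every Susceptible library held more calls, 431736695 to 570142104, than every Control library, 312981171 to 429663347, after a minimum of 10 calls per cytosine that stands in all files. At intermediate CpGs the squared difference between the 2 strands averaged 18.4 and 19.7 times its binomial expectation in Control 5 and Control 8. It averaged 2.42 to 6.11 times in the other 7 libraries. Across the 531 tiles Control 5 was the highest library in 162 and the lowest in 96, Control 8 the highest in 126 and the lowest in 103, and Susceptible 7 the lowest in 100. Level over all autosomal CpGs was 76.4% ± 0.510 (SD, n = 5) in Control and 75.8% ± 0.964 (n = 4) in Susceptible mice (two-sided exact permutation p = 0.278). Over the autosomal CpGs listed in all 9 libraries, weighted equally, it was 75.1% ± 0.383 and 75.1% ± 1.27 (exact permutation p = 0.984). Start windows of 10 striatal projection neuron genes had median levels of 8.19 to 12% over the 9 libraries. Those of 6 astrocyte genes lay between 65.7 and 73.4% in 8 libraries and at 54.7% in Susceptible 7. That library was also lowest for the oligodendrocyte (64.2%), microglia (76.7%), endothelial (46.0%) and cortical projection neuron (21.5%) lists, and over all autosomal CpGs (74.5%). It was not lowest for the striatal projection neuron (10.1%) and neuron (3.58%) lists. Start windows higher in Susceptible mice were 1 of 6 astrocyte, 1 of 9 microglia, 6 of 12 oligodendrocyte and 1 of 4 endothelial ones. So were 10 of 15 striatal projection neuron, 5 of 7 neuron and 3 of 5 cortical projection neuron windows, beside 47.5% of all windows. Bodies higher were 0 of 6 astrocyte, 0 of 6 microglia, 3 of 8 oligodendrocyte and 2 of 3 endothelial ones. For the neuronal lists, in the order above, they were 7 of 10, 3 of 5 and 1 of 4, beside 40.6% of all bodies. The part of cell makeup in the results below was not tested. Without Control 5 and Control 8, 11 of the 25 windows, bodies and tiles of these genes at an unadjusted p under 0.05 in all 9 libraries stayed at that level. Leaving out 1 library alone kept from 10 (Control 8) to 20 (Control 4 or Control 5) of the 25, and 12 without Susceptible 6. Whether the loss comes from those 2 libraries or from the smaller number of libraries was not tested.

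The 250 bases before 4 of the starts are shown because they range from CpG-rich to CpG-poor and from nearly unmethylated to methylated. They come from RefSeq GRCm38.p6, 5′ to 3′ in the direction of transcription, with each CpG in capitals, and of 32102 CpGs listed by the 9 libraries in 3261 such sequences 32102 fell on CG letters. The first is from Fkbp5 (chr17:28486150-28486399, minus strand), the second from the first Sgk1 start (chr10:21881934-21882183, plus strand), the third from Crhbp (chr13:95444832-95445081, minus strand) and the fourth from Crhr2 (chr6:55133017-55133266, minus strand).
Fkbp5: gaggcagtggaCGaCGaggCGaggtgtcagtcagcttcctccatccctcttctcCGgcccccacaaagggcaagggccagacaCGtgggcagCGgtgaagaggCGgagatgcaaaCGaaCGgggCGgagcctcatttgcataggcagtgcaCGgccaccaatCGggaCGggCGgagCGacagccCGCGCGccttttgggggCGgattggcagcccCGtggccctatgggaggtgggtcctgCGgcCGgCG
Sgk1, first start: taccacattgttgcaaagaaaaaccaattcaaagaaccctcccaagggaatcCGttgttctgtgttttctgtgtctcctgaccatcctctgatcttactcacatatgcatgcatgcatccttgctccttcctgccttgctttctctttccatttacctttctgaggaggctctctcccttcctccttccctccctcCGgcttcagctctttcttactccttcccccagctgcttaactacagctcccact
Crhbp: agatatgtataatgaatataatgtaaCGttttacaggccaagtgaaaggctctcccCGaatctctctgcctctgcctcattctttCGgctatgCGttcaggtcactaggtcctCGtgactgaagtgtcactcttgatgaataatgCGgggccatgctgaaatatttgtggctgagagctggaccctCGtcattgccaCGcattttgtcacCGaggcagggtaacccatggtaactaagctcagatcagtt
Crhr2: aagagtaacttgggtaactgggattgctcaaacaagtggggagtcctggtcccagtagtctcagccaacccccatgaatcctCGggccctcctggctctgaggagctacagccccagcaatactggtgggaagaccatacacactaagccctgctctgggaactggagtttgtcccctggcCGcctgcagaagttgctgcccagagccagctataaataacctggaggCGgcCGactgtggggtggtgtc
The Fkbp5 stretch holds 23 CpGs and read 1.73% ± 0.770 in Control and 1.55% ± 0.941 in Susceptible mice. The Crhbp stretch holds 9 CpGs and read 90.1% ± 7.13 and 81.5% ± 6.33, in that order of groups, and the Crhr2 stretch, with 4 CpGs, read 76.1% ± 20 and 86.0% ± 5.69. The stretch before the first Sgk1 start is CpG-poor as well but was little methylated. It holds only 2 CpGs, and 8 of 9 libraries lay between 0 and 11.9% there and Susceptible 7 at 21.2%, on 33 to 84 calls.

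The glucocorticoid receptor binds a palindromic response element, AGAACA, then any 3 bases, then TGTTCT, which was searched on both strands of the 250 bases before 32609 starts of all genes. An exact match stood in 3 of them (0.00920%), and 1 of the 3 was a start of Sgk1, a kinase gene whose induction by glucocorticoids gave it its name. The match lies at chr10:21993701-21993715, 189 bases before the fifth listed Sgk1 start, and is shown in capitals with its surroundings.
Sgk1, response element: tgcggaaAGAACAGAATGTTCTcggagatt
The element itself holds no CpG, and the CpG that follows it at 21993716 was listed in 2 libraries only, so its methylation is not compared here. With 1 mismatch allowed, 46 of the 32609 sequences matched (0.141%), and among the starts of these genes that are in the sequence table it was again only this one. The half-site AGAACA, which is common at 16.1% of sequences and overlaps the full element, was present before 3 of the 6 Sgk1 starts and before no other start examined. A match is a description of the letters and does not show that the receptor binds there.

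Start windows of Crhr1, Nr3c2 and Fkbp5 were nearly unmethylated. Crhr1, the main CRH receptor of the forebrain, read 1.26% ± 0.359 in Control and 1.53% ± 0.300 in Susceptible mice on 3595 to 5618 calls. Nr3c2, the mineralocorticoid receptor, read 2.59% ± 1.74 and 2.53% ± 0.584, with Control 8 at 5.61% above all others. Fkbp5 read 5.11% ± 1.33 and 3.82% ± 0.436. All 3 starts stood below 7% in every library.

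The 6 listed Sgk1 starts, spread along 1 gene of 117720 bp, covered nearly the whole scale. The first read 9.55% ± 3.99 in Control and 7.71% ± 0.355 in Susceptible mice, the second 87.6% ± 2.41 and 86.2% ± 4.38, and the third 96.7% ± 2.77 and 97.0% ± 0.954. The fourth read 22.3% ± 5.26 and 21.4% ± 6.31, the fifth 3.40% ± 1.15 and 2.69% ± 1.02, and the sixth 1.94% ± 1.35 and 2.02% ± 0.544. Windows of the fifth and sixth starts overlap and are not separate measurements. The first window also overlaps the long noncoding RNA gene Gm46215. No 2 groups of libraries stood apart at any of the 6 starts.

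Start windows of the remaining genes were intermediate or methylated. Crhbp, which encodes the protein that binds and neutralises CRH, read 52.4% ± 5.09 in Control and 56.8% ± 2.33 in Susceptible mice. Hsd11b1, the enzyme that regenerates active corticosterone inside cells, read 63.8% ± 3.28 and 60.5% ± 8.10, and its lowest library was Susceptible 7 at 51.1%. Crhr2, the second CRH receptor, which also binds urocortins, read 85.2% ± 7.45 and 90.5% ± 2.46, with Control 5 alone below 85% at 72.7%. The groups overlapped at all 3 genes.

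Both ends of Nr3c1 were methylated, the low end at 92.8% ± 3.98 in Control and 94.5% ± 1.40 in Susceptible mice and the high end at 60.7% ± 5.79 and 67.4% ± 11.6. Susceptible 6 stood at 82.8% at the high end and the other 8 libraries between 54.8 and 69.7%, on 155 to 553 calls. Crh, a gene only 1996 bp long, read 9.31% ± 1.09 and 9.56% ± 2.87 at its low end and 25.9% ± 4.98 and 17.9% ± 5.07 at its high end. Both of its windows overlap the long noncoding RNA gene Gm42189, and the low-end window also reaches the protein-coding gene Trim55.

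**Figure D1:**
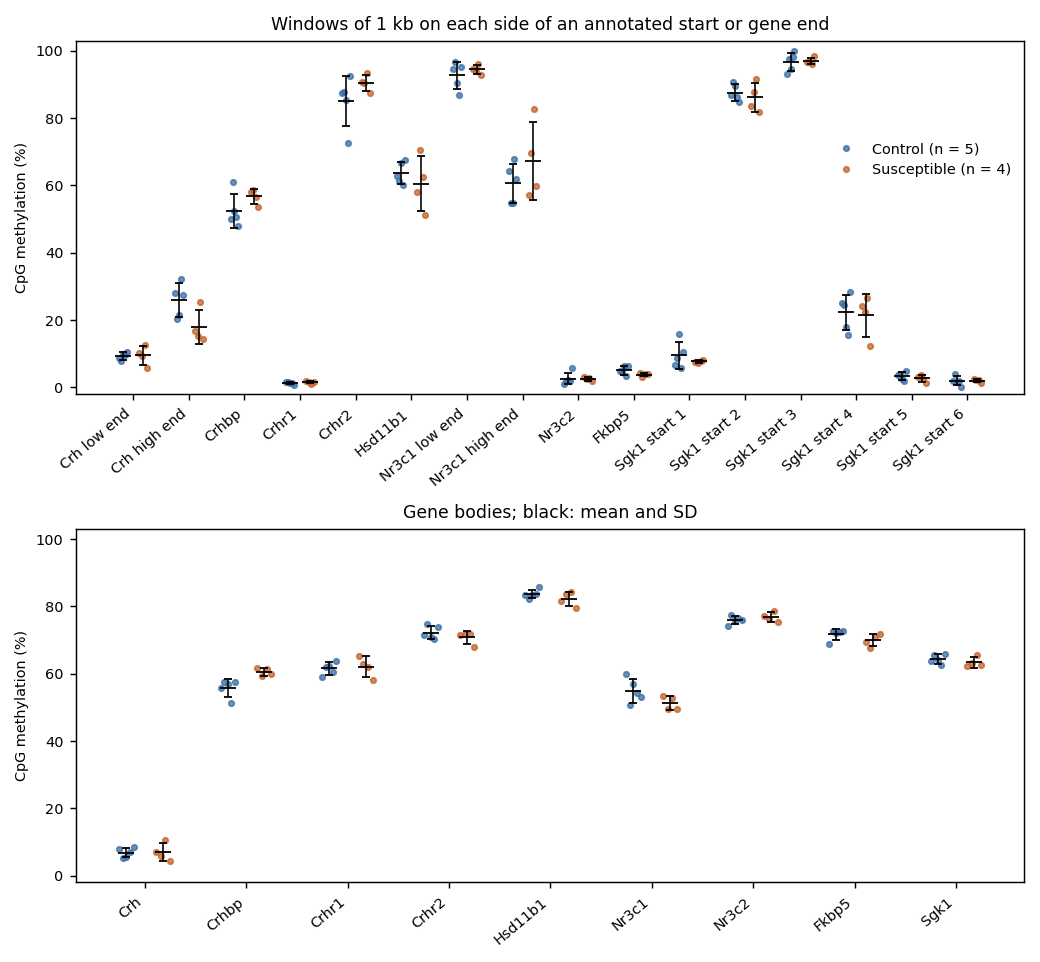
CpG methylation (percent, vertical axis) of the 16 start or gene-end windows (upper panel) and 9 gene bodies (lower panel), 1 point per library, with black bars for the mean and SD of 5 Control and 4 Susceptible libraries. Crhr1, Nr3c2 and Fkbp5 starts lie near 0, the Nr3c1 low end and 2 of the Sgk1 starts near the top, and the groups overlap everywhere but at the Crhbp body.

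Runs of 200-bp bins below 20% located the low-methylated part of each gene. The longest was 4600 bp at the Nr3c2 start (chr8:76898601-76903200, 250 CpGs) and also overlaps the gene Gm10649. This stretch read 1.07% ± 0.242 in Control and 1.53% ± 0.239 in Susceptible mice. The groups overlapped there (Control 3 1.44%, Susceptible 6 1.32%), the exact permutation p was 0.0397 unadjusted for the 11 stretches compared, and the difference was 0.459 points. Nr3c1, methylated at both ends, had a stretch of 3400 bp with 278 CpGs inside the gene (chr18:39488601-39492000), 27421 bp from its high end, that read 1.67% ± 0.717 and 1.91% ± 0.284. So the methylated gene ends and the unmethylated CpG-rich region of the glucocorticoid receptor gene are different places.

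Crhr1 had 2 such stretches, 2400 bp with its start (1.67% ± 0.672 in Control, 2.27% ± 0.361 in Susceptible) and 1200 bp further in that overlaps the gene Gm35469 (4.87% ± 2.26 and 6.72% ± 1.37). Fkbp5 had 1 of 1800 bp over its start and first part (2.33% ± 0.635 and 2.21% ± 0.672). Sgk1 had 3, of 1400, 800 and 1800 bp, and the first of them, at the first start, read 3.51% ± 0.993 and 5.35% ± 0.741. That first one had an unadjusted exact permutation p of 0.0238 with overlapping groups, and the other 2 read 9.97% ± 3.06 against 8.99% ± 3.09 and 1.56% ± 0.929 against 1.46% ± 0.535. Crh had 1200 bp inside the gene (3.24% ± 1.68 and 3.89% ± 1.94). Of the 11 stretches of these genes 8 read higher in Susceptible mice, and 61.4% of the 9647 start windows under 5% in the genome did, by a median of 0.146 points over all of those windows.

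Crhbp, whose start window is intermediate, and Crhr2, whose start window is methylated, held a stretch of 1000 bp each. In Crhbp it began 631 bp inside the gene from the listed start (3.12% ± 1.5 and 3.85% ± 1.07), so part of it lies in the start window. In Crhr2 it lay 14816 bp inside (chr6:55117201-55118200, 77 CpGs) and read 3.03% ± 0.958 and 3.41% ± 0.908. Hsd11b1 had none, and its lowest tile, 193243001 on chromosome 1, read 36.4% ± 9.98 and 41.3% ± 6.11. The lowest tile was under 8% in both groups in each of the other 8 genes, down to 0.731 and 1.30% in the Nr3c2 tile 76899001. With bins below 30% in place of 20%, a setting chosen after the data were seen, Crhr1 gained 1 stretch and the other 8 genes kept their number.

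**Figure D2:**
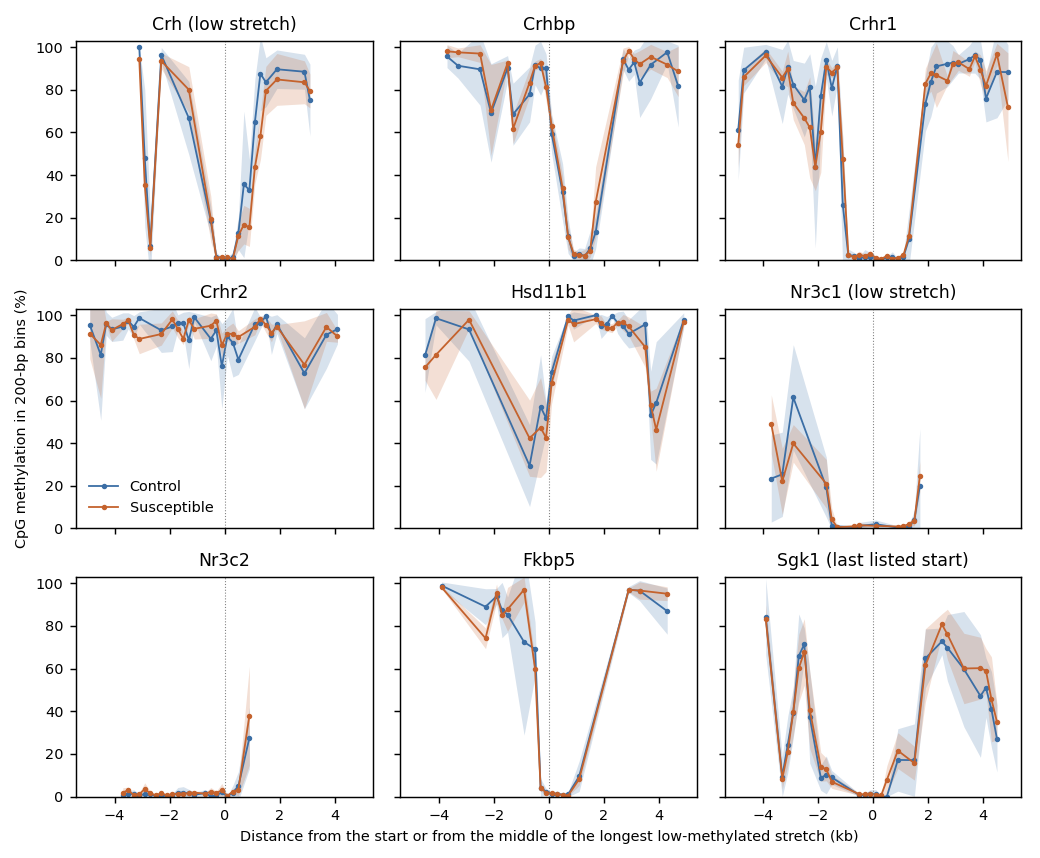
CpG methylation in 200-bp bins (percent, mean with an SD band) against distance in kb, in the direction of transcription from the listed start, or, for Crh and Nr3c1, by coordinate from the middle of the longest low stretch. The dip lies on the start in Crhr1, Nr3c2 and Fkbp5, about 1 kb inside the gene in Crhbp, and is shallower in Hsd11b1, while the Crhr2 start shows none.

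Differences between the groups were tested over all 42477 start windows, 32372 gene bodies and 1041809 tiles of the genome with a quasi-binomial model on the counts, its dispersion moderated with limma's formulas. Called at an adjusted p under 0.05 were 0.0% of each kind, with smallest adjusted p of 0.985, 0.993 and 0.103, and limma on logit levels also called 0. At an unadjusted p under 0.05 stood 1984 start windows (4.67%), 1531 bodies (4.73%) and 45605 tiles (4.38%). Of the 9 genes, 2 of 16 start windows were at that level, both lower in Susceptible mice (2.39% of all windows), and 1 of 9 bodies, which was higher (1.44% of all bodies). Of their 531 tiles 22 were (4.14%), 8 higher and 14 lower in Susceptible mice, where 2.18 and 2.19% of all tiles were. Those tile counts are close to the genome's share and are not a result about these genes. Groups did not overlap at 0 of 16 start windows (1.76% of all), at 1 of 9 bodies (1.61%, or 0.476% with Susceptible mice higher) and at 5 of 531 tiles (1.56%).

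Among the start windows of these genes, the Crh high end had the smallest unadjusted p. The window read 28.1, 20.4, 21.4, 32.3 and 27.5% in Control mice 2, 3, 4, 5 and 8, and 16.9, 15.1, 25.3 and 14.3% in Susceptible mice 2, 3, 6 and 7. Of the 4 Susceptible libraries 3 lay below every Control library, and Susceptible 6 lay among them. The difference of −8.05 points had an unadjusted p of 0.0179 and an adjusted p of 0.985 in the quasi-binomial model moderated with limma's formulas. Over its 20 CpGs listed in every library, weighted equally, it was −4.62 points (exact permutation p = 0.0714), with 8 CpGs higher and 10 lower.

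That difference sat in the tile chr3:19695001-19696000 across the gene end. Control libraries read 46.0, 31.0, 50.5, 72.9 and 53.4% and Susceptible libraries 28.6, 28.7, 42.5 and 26.4%, on 280 to 857 calls. The difference of −19.2 points (unadjusted p = 0.00621, adjusted p = 0.997, same model) rests in part on Control 5, which read 95.5% in the first 200 bases where the other 8 libraries read 7.44 to 29.1%. Leaving out Control 5 and Control 8 together brought it to −11.0 points at an unadjusted p of 0.10, and the window to −5.41 points at 0.132. At 500 bp on each side the window differed by −15.4 points and at 2000 bp by −2.13.

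Crhbp was the gene whose body separated the groups. Control libraries read 55.9, 57.6, 56.9, 51.4 and 57.5% and Susceptible libraries 61.7, 59.2, 61.4 and 60.0%. The groups did not overlap, with Susceptible libraries higher by 4.72 points in the mean (unadjusted p = 0.0127, adjusted p = 0.993, same model with limma's moderation). The body mixes the low stretch with methylated sequence, and the low stretch took 29.4% ± 2.48 of its calls in Control and 25.4% ± 2.10 in Susceptible mice (exact permutation p = 0.0476). Outside that stretch the body read 77.9% ± 1.54 and 79.9% ± 1.58, with overlapping groups (exact permutation p = 0.111). With the 60 CpGs listed in all 9 libraries weighted equally, the difference was 2.11 points (exact permutation p = 0.0159), with 27 CpGs higher and 30 lower. The groups did not overlap in that setting, at 54.7 to 57.0% in Control and 57.3 to 58.9% in Susceptible libraries. The tile of smallest p in Crhbp, 95441001, read 87.3% ± 8.47 and 94.2% ± 3.21 (unadjusted p = 0.0729).

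The Crhr1 body read 61.6% ± 1.87 in Control and 62.1% ± 3.03 in Susceptible mice, and the Crhr2 body 72.3% ± 2.02 and 70.8% ± 1.99. Among Crhr2 tiles, 55105001 read 88.4% ± 5.80 and 80.9% ± 2.09 (unadjusted p = 0.0227), with Control 3 at 79.5% among the Susceptible libraries. Its 12 CpGs listed in all 9 libraries were lower at 10 and higher at 2. The Crhr1 tile of smallest p, 104154001, read 93.0% ± 4.27 and 87.6% ± 2.64 (unadjusted p = 0.0469).

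The Crhr1 start read differently over the 71 of its CpGs that every library listed. With these weighted equally the mean was 1.33, 1.15, 1.10, 0.512 and 0.765% in Control and 2.24, 1.82, 1.73 and 2.04% in Susceptible libraries, and the groups did not overlap (0.971% against 1.96%, exact permutation p = 0.00794, the smallest 9 samples allow). The same weighting gave higher means in Susceptible mice at 67.3% of the 9193 start windows under 5%, with a median of 0.212 points, and all 4 Susceptible libraries above all 5 Control libraries at 2.58%. With calls summed, the Crhr1 difference was 0.775 points over those CpGs (unadjusted p = 0.0215) and 0.265 points over all listed CpGs (unadjusted p = 0.426). At 2000 bp on each side it was 2.77 points (unadjusted p = 0.0129). No adjusted p in the model with limma's moderation was under 0.93 in these settings.

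The bodies of Hsd11b1 and Nr3c2 differed by less than 2 points, and single tiles in them by more. The Hsd11b1 body read 83.7% ± 1.24 in Control and 82.3% ± 2.12 in Susceptible mice, the highest body of the 9. Its tile 193223001 read 97.6, 98.0, 96.5, 97.3 and 100% in Control and 95.2, 94.9, 91.1 and 93.7% in Susceptible libraries, 1 of the 5 tiles without overlap, by −4.16 points (unadjusted p = 0.0451). The Nr3c2 body, 346930 bp, read 76.0% ± 1.22 and 76.9% ± 1.44. Its tile 77051001 read 53.5, 58.2, 32.4, 41.6 and 33.5% against 55.6, 60.3, 58.2 and 51.7% (unadjusted p = 0.0102), where Control 2 and Control 3 stood among the Susceptible libraries. Its 11 CpGs listed in every library differed by 6.37 points against 12.6 for the tile, and 10 of them were higher. Control 8 read 9.03 and 22.6% in the first and second 200 bases, where the other libraries read 65.7 to 99.2%.

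The Nr3c1 body read 55% ± 3.56 in Control and 51.4% ± 2.14 in Susceptible mice (unadjusted p = 0.0984, adjusted p = 0.993, limma's moderation). Its 3400-bp low stretch took 32.1% ± 4.23 and 37.2% ± 1.33 of the calls (exact permutation p = 0.0556), and outside it the body read 80.1% ± 1.21 and 80.7% ± 3.12. The sign thus differed between the whole body and its methylated part. Of 38 tested Nr3c1 tiles 2 were at an unadjusted p under 0.05 (5.26%, beside 4.38% of all tiles), both higher in Susceptible mice. Each of the 2 lost that level in 5 of the fits that left out 1 library. The first, 39423001, read 78.6% ± 13.7 and 91.3% ± 3.74 (unadjusted p = 0.0439) on 102 to 194 calls, with Control 8 lowest at 55.9%.

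Fkbp5 held the smallest p among the 531 tiles, in 28486001 across its start. Control libraries read 11.3, 10.9, 11.4, 7.24 and 16.0% and Susceptible libraries 8.77, 6.43, 7.08 and 8.24%, with only Control 5 inside the Susceptible range (−3.75 points, unadjusted p = 0.00211, adjusted p = 0.997, same model). The tile joins unmethylated and methylated sequence. Its first 600 bases read 2.71% ± 1.02 and 2.76% ± 0.576, and its last 400 bases 88.3% ± 7.51 and 80.4% ± 4.84 (exact permutation p = 0.103). Those last 400 bases took 10.3% ± 4.71 of the calls in Control against 6.28% ± 1.10 in Susceptible mice (exact permutation p = 0.151). The groups overlapped in both, and Control 5 had the smallest share of calls at 2.92%. Over the tile's 32 CpGs listed in every library the means were 4.85 and 5.02%. The 500-bp start window differed by 0.0456 points upward, and the 1000-bp one by −1.29 points (unadjusted p = 0.0306).

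Inside Fkbp5 the tile chr17:28470001-28471000 was the only 1 of the 531 in which the groups did not overlap and the means lay 10 points or more apart, which held for 0.436% of all tiles. It read 83.9, 89.4, 86.8, 85.1 and 86.3% in Control and 75.2, 77.5, 82.4 and 69.6% in Susceptible libraries, on 114 to 310 calls (unadjusted p = 0.0304, adjusted p = 0.997, limma's moderation). Only 1 of its 16 CpGs was listed in every library, at 63.8 against 55.8%. The Fkbp5 body read 71.7% ± 1.64 and 69.9% ± 1.76, with Control 2 at 68.8% below the other Control libraries.

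Sgk1 held 6 of the 22 tiles, 2 higher and 4 lower, which is 6.74% of its 89 tested tiles beside 4.38% of all tiles. The tile 21995001, at the far edge of the low stretch over the last starts, read 18.8, 35.8, 10.1, 19.4 and 11.1% in Control and 44.1, 25.9, 47.2 and 22.7% in Susceptible libraries (15.9 points, unadjusted p = 0.00745). Every Susceptible library exceeded 4 of the 5 Control libraries. Over its 5 CpGs listed in every library the difference was 5.18 points, with 2 higher and 3 lower. The tile 21881001, just before the first start, read 45.9, 60.1, 82.0, 48.3 and 50.6% against 36.2, 39.2, 46.4 and 38.4% (−17.3 points, unadjusted p = 0.0132). The remaining Sgk1 tile beside a low one, 21992001, read 28.1% ± 8.92 and 30.1% ± 11.8 (unadjusted p = 0.728). The Sgk1 body read 64.4% ± 1.42 and 63.4% ± 1.59.

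**Figure D3:**
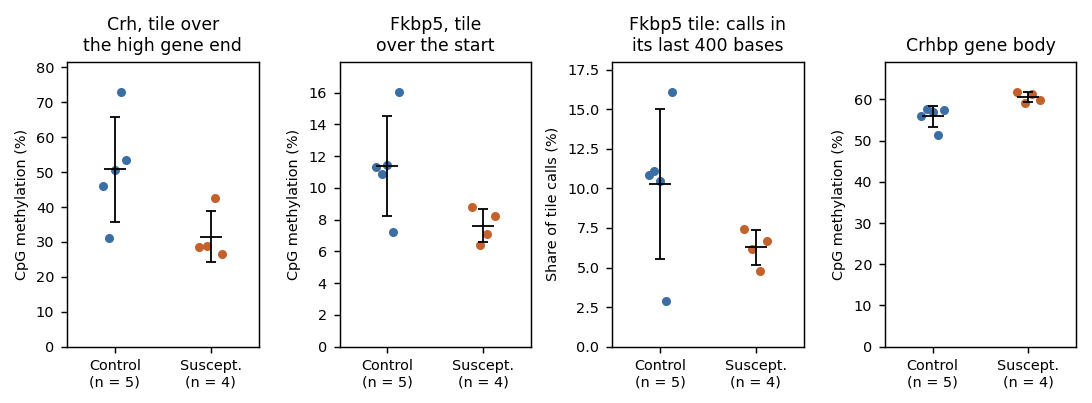
Values per library, with mean and SD, for the tile at the Crh high end, the tile at the Fkbp5 start, the share of that Fkbp5 tile's calls in its last 400 bases, and the Crhbp body (all in percent). Control 5 is the highest Crh point at 72.9% and the lowest Control point of the Fkbp5 tile at 7.24%, and Control 5 and Control 8 are the lowest and highest Control points of both Fkbp5 panels.

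The Crh tile and both of these Sgk1 tiles read 20% or more over all libraries and border a tile below 10%. Such border tiles numbered 13 in these genes, of which 3 were at an unadjusted p under 0.05. The class was formed after the values of these 3 tiles were seen, so their count cannot be read against the genome's share. Across the genome 17384 border tiles had 7.16% at that level, against 4.38% of all tiles.

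**Figure D4:**
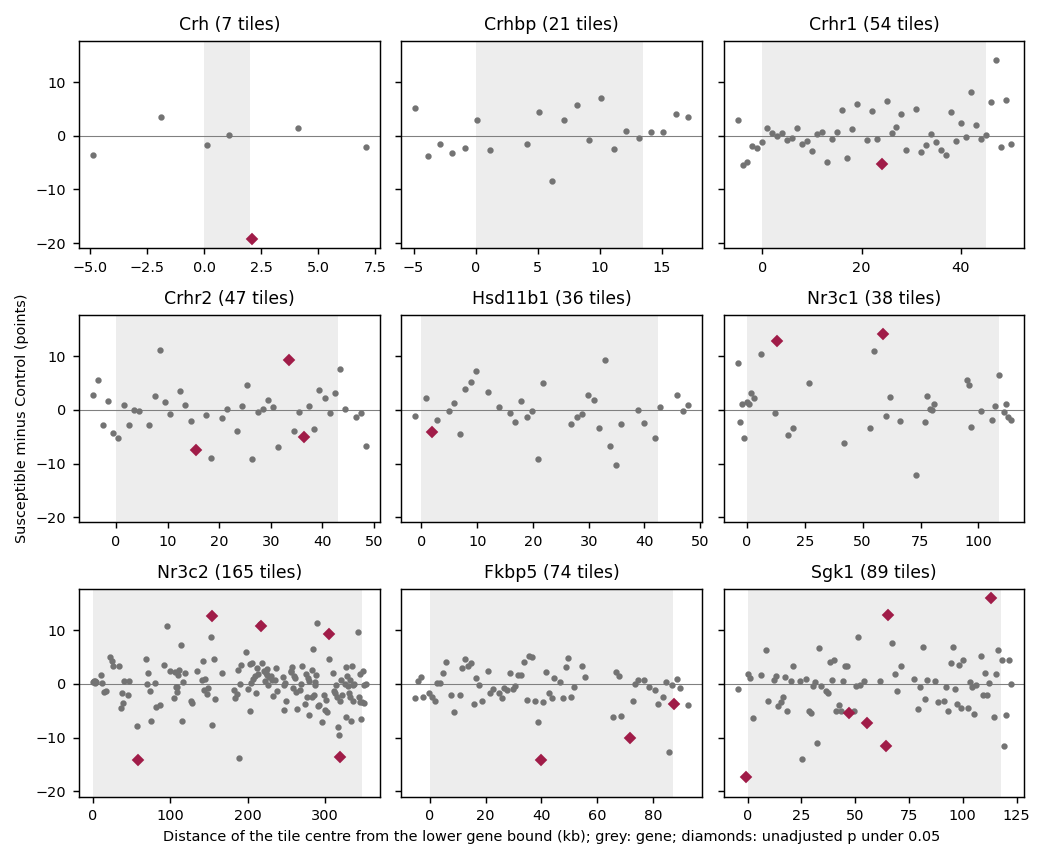
Difference of group means, Susceptible minus Control in percentage points, for each of the 531 tested tiles against the distance of the tile centre from the lower gene bound in kb, with the gene in grey and tiles at an unadjusted p under 0.05 as diamonds. The 22 diamonds lie on both sides of 0 and are scattered along the genes, the lowest being the Crh tile at −19.2 points.

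A list of 40 other genes of the pathway gave 61 start windows, of which 1 was at an unadjusted p under 0.05 (4.67% of all windows), and 39 bodies, of which 4 were (4.73% of all bodies). The groups did not overlap at 3 of the 61 windows (1.76% of all) and at 1 of the 39 bodies (1.61%), that of Hsd11b2. The window was the low end of Avpr1b, the pituitary vasopressin receptor, at 66.6% ± 4.42 in Control and 76.1% ± 1.68 in Susceptible mice. Its libraries read 74.0, 66.7, 65.6, 62.5 and 64.4% against 76.2, 75.5, 78.4 and 74.4%, without overlap (unadjusted p = 0.00105, adjusted p = 0.985, limma's moderation). The bodies of Avpr1b (82.0 and 85.0%), Per1, a clock gene that glucocorticoids induce (46.7 and 50.2%), and Hsd11b2, the enzyme that inactivates corticosterone (44.3 and 49.0%), were higher. That of Tsc22d3, a glucocorticoid-induced gene also known as GILZ, was lower (42.7 and 37.7%). Another window without overlap, named after its values were seen, was the Mt1 start (7.55 and 4.55%). None passed the adjusted threshold.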

How the data were processed

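Libraries were made from nucleus accumbens DNA with the Zymo Pico Methyl-seq kit, per the labels' protocols. Bismark, Bowtie and Picard and the build mm10 are named in the submitters' processing notes, with no version or role. Each deposited file lists cytosines of CpGs with the count of calls, per the file headers, and the percent of calls read as C. Only cytosines with 10 or more calls are in the deposited files. Count times percent gave whole methylated calls, and the strands of a CpG were added.

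Levels were summed over windows of 1000 bp on each side of starts (RefSeq GRCm38.p6, both gene ends for 7531 genes without a listed start), gene bodies and 1000-bp tiles, kept where each library had 3 or more CpGs and 20 or more calls. The 5 Control and 4 Susceptible libraries were compared by a quasi-binomial model of the counts (F test, dispersion moderated with limma's formulas, Benjamini-Hochberg adjustment over all features), tested first on simulated data. Single values were compared by two-sided exact permutation over the 9 samples. Nothing in the labels says more than that the samples are separate mice, and no batch is given. Intervals of calls are not printed, since calls from amplified libraries are not independent molecules.

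The genes and lists were chosen with earlier results of these data known. Named tiles are those of lowest level, of smallest p, at a start, or without overlap and 10 points apart. Further tiles, and the border tiles, were named after their values were seen. The other 40 pathway genes were named where the unadjusted p was under 0.05, and 1 further result of that list is not reported here. Alternatives were limma on logit levels, a block for mouse number, leaving out libraries, other windows and other filters on calls. Analysis used Python 3.11.15, numpy 2.4.6, pandas 2.3.3 and scipy 1.17.1.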

Additional observations from a re-analysis of the deposited data

Results flagged for a closer look

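In 50 checks of a group's levels for 1 library far from the rest, 4 stood out, and chance gives about 5%, or 1 in 20. At the Nr3c2 start, Control 8 read 5.61% where the other Control libraries read 1.14 to 2.22%. In the Crhbp body, Control 5 read 51.4% where the others read 55.9 to 57.6%. In the Fkbp5 body, Control 2 read 68.8% and the others 72.0 to 72.7%. In the Crhr2 body, Susceptible 7 read 67.8% and the other Susceptible libraries 71.7 to 71.9%.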

How the results depend on the processing

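Without 1 library at a time, the genes' start windows at an unadjusted p under 0.05 numbered 1 to 3, their bodies 1 to 2 and their tiles 11 to 32, the fewest without Susceptible 6, and over the whole genome no start window or body was called and 0 to 1 tile, the 1 (adjusted p = 0.0370) without Control 4 and not in these genes. The starts numbered 1 with limma on logit levels and 1 without Control 5 and Control 8. The bodies numbered 2 with CpGs of 20 or more calls and 2 with CpGs listed in all 9 libraries. Tiles numbered 37 of 643 (5.75%, beside 4.99% of all tiles) without Control 5 and Control 8, and 9 of 285 (3.16%, beside 4.37%) with CpGs of 20 or more calls. Of the 25 windows, bodies and tiles of these genes at an unadjusted p under 0.05, 11 stayed at that level without Control 5 and Control 8, and 10 with limma on logit levels. The Fkbp5 start difference turned to 0.0456 at 500 bp on each side, a window that holds less of the methylated flank. Whether the flank accounts for the change was not tested. The Crh high end window and tile and the Crhbp body stayed at an unadjusted p under 0.05 without any single library. So did the Fkbp5 tile 28486001 and the Nr3c2 tile 77051001. The Fkbp5 window did not without Control 4, Control 8 or Susceptible 3, and the Sgk1 tile 21995001 did not without Susceptible 6. Mouse numbers 2 and 3 occur in both groups, but same-numbered libraries did not deviate together across tiles (r = 0.0258 and −0.0171). With the number as a replicate block, the fit held only Control 2, Control 3, Susceptible 2 and Susceptible 3. In it 1 start window, 2 bodies (Sgk1 and Crhr1) and 31 tiles of these genes (5.84%, beside 4.52% of all tiles) were at an unadjusted p under 0.05. No feature of the genome was called in that fit. Depth limits single tiles, since a tile could pass with 20 calls in a library.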
